A study of Homo sapiens with 8 samples.

Results

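Of 35542 intervals marked by acetylated lysine 27 of histone H3 (H3K27ac) in HCEC-1CT cells, 1271 (3.58%) were noncoding-transcript-only promoter peaks. Overlapping peaks of the 6 deposited lists were merged into 143733 intervals, and an interval was kept when its fold over local background was at least 5 in all 3 libraries of a genotype. A kept interval was counted here when the summit of its highest peak lay within 1 kb of a transcript start of a GENCODE long noncoding RNA (lncRNA) gene and more than 3 kb from every transcript start of a protein-coding gene. HCEC-1CT is a line of human colonic epithelial cells immortalised with CDK4 and hTERT, and H3K27ac was measured by chromatin immunoprecipitation and sequencing (ChIP-seq) in 3 libraries of wild-type (WT) cells and 3 of cells labelled CBP_KO, which lack the histone acetyltransferase CREBBP (CREBBP-KO). The study's methods speak of 3 replicates of a condition without saying how these were made. The p-values measure the spread between these libraries, whatever their source. All cells, WT included, derived from a line carrying a doxycycline-inducible Cas9. The KO cells were obtained by transfecting guide RNAs and sorting single cells, and the study's methods speak of monoclonal lines and also of pooling several clones with a matched pool of parental subclones, so an effect of the genotype and one of the clones cannot be told apart. The question was where the rank of H3K27ac peaks within a library differs between cells with and without CREBBP.

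Long noncoding RNAs are transcripts without a translated open reading frame, and many are spliced, capped and polyadenylated like messenger RNAs. Some work as the RNA itself, as NEAT1 does in paraspeckles, and others mainly release small RNAs from their introns or exons, such as microRNAs (miRNAs) and the small nucleolar RNAs (snoRNAs) that guide modification of ribosomal RNA. H3K27ac marks active promoters and enhancers and is deposited largely by CREBBP and its paralogue EP300. Enhancers are also transcribed, so a lncRNA start far from any coding gene can sit in a CpG island like that of a coding promoter or in CpG-poor sequence like that of an enhancer.

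The promoter windows of the 2 largest falls and 2 largest rises are shown as examples of the class, together with that of NORAD, among the highest peaks of the class. Each runs from 250 bases before to 50 bases after the lncRNA start nearest to the summit (hg38, 5′ to 3′ on the strand of the lncRNA), and capitals mark CpG dinucleotides. ENSG00000250777 (chr4:137700816-137701115, minus strand) and LINC01931 (chr2:149859142-149859441, minus strand) ranked lower in CREBBP-KO. ENSG00000277159 (chr13:112606368-112606667, minus strand) and ENSG00000226643 (chr1:222454656-222454955, minus strand) ranked higher. NORAD lies at chr20:36050969-36051268 on the minus strand. A window follows the lncRNA start and need not hold the summit of the peak. The summits of ENSG00000250777, ENSG00000277159 and ENSG00000226643 lay 256, 142 and 801 bases from the start, outside their windows.
ENSG00000250777: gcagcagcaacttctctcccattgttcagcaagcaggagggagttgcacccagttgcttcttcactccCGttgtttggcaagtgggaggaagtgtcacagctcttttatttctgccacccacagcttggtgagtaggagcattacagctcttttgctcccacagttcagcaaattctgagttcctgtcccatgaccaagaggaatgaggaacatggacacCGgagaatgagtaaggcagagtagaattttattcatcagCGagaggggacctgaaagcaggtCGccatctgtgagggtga
LINC01931: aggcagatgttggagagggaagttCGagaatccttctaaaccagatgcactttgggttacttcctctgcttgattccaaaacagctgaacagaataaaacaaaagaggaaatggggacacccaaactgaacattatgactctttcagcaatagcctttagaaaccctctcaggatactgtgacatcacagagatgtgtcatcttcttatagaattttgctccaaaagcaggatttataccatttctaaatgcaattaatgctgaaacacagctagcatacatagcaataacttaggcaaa
ENSG00000277159: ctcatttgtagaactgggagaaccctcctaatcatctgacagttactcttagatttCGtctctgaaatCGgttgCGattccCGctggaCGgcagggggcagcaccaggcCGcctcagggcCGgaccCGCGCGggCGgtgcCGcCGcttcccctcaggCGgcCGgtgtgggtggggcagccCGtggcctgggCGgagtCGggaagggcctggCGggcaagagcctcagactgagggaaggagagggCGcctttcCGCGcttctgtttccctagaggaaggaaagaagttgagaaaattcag
ENSG00000226643: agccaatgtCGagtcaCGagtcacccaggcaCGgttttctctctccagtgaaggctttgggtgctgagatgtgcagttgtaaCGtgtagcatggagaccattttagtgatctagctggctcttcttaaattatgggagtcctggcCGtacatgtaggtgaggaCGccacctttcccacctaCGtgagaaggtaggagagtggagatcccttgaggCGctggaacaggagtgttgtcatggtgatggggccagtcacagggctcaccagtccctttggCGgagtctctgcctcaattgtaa
NORAD: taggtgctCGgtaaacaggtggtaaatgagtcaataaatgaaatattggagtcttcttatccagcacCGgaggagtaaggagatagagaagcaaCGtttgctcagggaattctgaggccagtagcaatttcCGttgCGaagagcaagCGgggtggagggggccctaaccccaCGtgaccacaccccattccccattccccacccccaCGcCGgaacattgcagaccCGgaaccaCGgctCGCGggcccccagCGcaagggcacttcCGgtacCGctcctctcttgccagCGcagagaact

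The windows of ENSG00000250777 and LINC01931 held 4 and 1 CpG, and those of ENSG00000277159 and ENSG00000226643 held 22 and 9. CpG number did not separate falls from rises one by one, since the windows of MEF2C-AS1, another of the largest falls, and ENSG00000255476, another of the largest rises, held 2 each. The window of NORAD held 17 CpG. Over all 1271 noncoding-transcript-only promoters the median was 8 CpG in 300 bases, against 14 in the 35116 human promoter windows of RefSeq with the same layout.

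The 6 lists held 86163 to 111697 peaks, fewer in WT (86163 to 93567) than in CREBBP-KO (99008 to 111697), and their read depth is unknown. Of 10 markers of colonic epithelium CDH1 alone had a promoter peak of fold 5 or more in all libraries, and this count was the same in both genotypes. KRT19, VIL1, CDX1, CDX2 and CEACAM5 had no promoter peak in any library. KRT8, EPCAM and LGALS4 had peaks in every library and KRT18 in all but CREBBP-KO replicate 2, but these did not reach fold 5 in all 3 libraries of either genotype. Mesenchymal markers VIM, COL3A1, PDGFRB, TWIST1 and ACTA2 had such a peak in all 6 libraries (5 of 6 markers), and no immune (0 of 4) or endothelial marker (0 of 3) did. At that fold the labelled cell type was therefore not visible in most of its own markers. An H3K27ac peak list cannot show whether CREBBP protein was absent.

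The 1271 intervals had 1211 lncRNA genes as their nearest. Most of these genes carry no symbol: 689 intervals were nearest to a gene known by its Ensembl identifier alone, 266 to a LINC gene, 106 to a gene named as antisense, 43 to a host gene of small RNAs, 15 to a divergent transcript, 6 to an intronic transcript and 146 to a gene with another symbol. Of the intervals, 1031 lay outside coding genes, 174 inside a coding gene on the opposite strand, 62 on the same strand and 4 in genes of both strands. The median distance of the summit from the nearest coding start was 34688 bases (quartiles 13852 and 97828). Lengths ran from 402 bases to the 100401 bases at MIR100HG, and 11 intervals were long enough to hold a coding start although the summit was over 3 kb from it. Summits lay a median of 98 bases downstream of the lncRNA start, 59.6% of them downstream. At the edges of the distance rule, 45 intervals lay within the last 100 bases of the 1 kb limit to the lncRNA start and 42, not counted, within the next 100 bases, while 20 lay within 500 bases outside the 3 kb limit to a coding start and 16, not counted, within 500 bases inside it. At the edge of the fold rule, ENSG00000261227 passed in WT with folds of 5.53, 5.42 and 5.00, and an interval of LINC00511 (chr17:72464384-72466920) missed it in WT with 5.82, 5.84 and 4.95.

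Noncoding-transcript-only promoters were lower than coding promoters and higher than distal intervals in every library. The height of a peak is given as the percentile of its fold among all peaks of its own list. The median member stood at 82.5, 82.2 and 81.3 in the WT libraries and at 85.9, 85.4 and 84.5 in the CREBBP-KO libraries, so that all KO medians were above all WT medians. Averaged over 3 libraries, WT stood at 82.0 ± 0.593 and CREBBP-KO at 85.3 ± 0.733 (mean ± SD), a difference of 3.27. Over all kept intervals the corresponding values were 79.9 ± 0.929 and 82.6 ± 0.870 (SD, n = 3 each), a difference of 2.67, and the KO lists were also longer. With all lists reduced to the length of the shortest, the difference for the noncoding promoters was 1.02. Coding promoters, whose summit lay within 1 kb of a coding start, stood at 86.4 ± 0.511 and 90.3 ± 0.374, and distal intervals, over 3 kb from any coding or lncRNA start, at 76.2 ± 1.74 and 78.1 ± 1.11 (SD, n = 3 each). The order of the classes was the same for percentiles of −log10 q, where noncoding promoters had means of 82.7 ± 0.742 for WT and 85.6 ± 1.07 for CREBBP-KO (SD, n = 3 each).

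**Figure D1:**
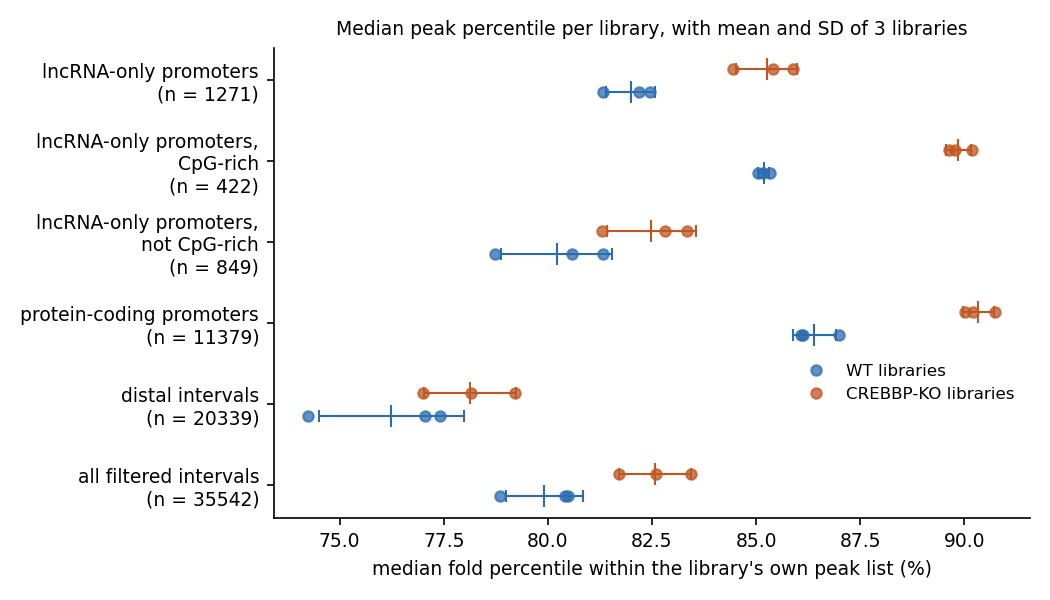
Median fold percentile (%) of the noncoding-transcript-only promoters, their CpG-rich and other members, coding promoters, distal intervals and all kept intervals, with a point for each library and the mean and SD of 3 libraries as a bar. Blue is WT and orange CREBBP-KO, and the noncoding promoters (82.0 in WT, 85.3 in CREBBP-KO) lie between coding promoters (86.4, 90.3) and distal intervals (76.2, 78.1).

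Which of these promoters changed rank between the genotypes was tested in 1246 intervals that had peaks in every library, whereas 25 lacked a peak in at least 1. Within each library the highest fold of each tested interval was ranked and converted to a normal score, and the shift is the mean score in CREBBP-KO minus that in WT, fitted with limma over all 34864 such intervals of the series. Ranks among the tested intervals do not change with the length of a list, as percentiles do, so a promoter can fall in rank with little change in percentile. Ranks are relative within a library, so a change of H3K27ac over the whole genome is not seen, and a rise need not mean more H3K27ac. The study reports H3K27ac reduced in CREBBP-KO cells, with borderline significance by mass spectrometry. By immunofluorescence it reports a significant decrease, minimal beside the effect of a histone deacetylase inhibitor. By ChIP-seq it reports that nearly all H3K27ac peaks were unaffected, with the few differences mainly at low peaks. That test used reads, a minimum fold change and a stricter threshold, so its share cannot be set directly beside the shares given here. At a Benjamini-Hochberg adjusted p under 0.05, 442 noncoding promoters changed rank (35.5%; 37.3% of all tested intervals). Of these, 263 ranked higher in CREBBP-KO (21.1%; 18.6% of all tested) and 179 ranked lower (14.4%; 18.7% of all tested). The share changed was close to the background, while the split between directions was 263 to 179 here and 6472 to 6533 over all tested intervals. With trends of the score with base composition and interval length removed, the split was 206 to 185 here and 5587 to 5699 over all tested intervals. Among coding promoters the split was 2962 to 1000 and among distal intervals 2832 to 4823, so the noncoding promoters lay between these classes here too. The median shift was 0.14 in noncoding promoters, 0.02 in all tested intervals, 0.20 in coding promoters and -0.12 in distal intervals, and that of the noncoding promoters was 0.019 with those trends removed.

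At an adjusted p under 0.0001, 24 noncoding promoters ranked higher (1.93%; 1.16% of all tested) and 24 lower (1.93%; 1.62% of all tested), together 3.85% against 2.79% of all tested. All 3 KO ranks were above all 3 WT ranks in 368 (29.5%; 24.8% of all tested), and all WT ranks above all KO ranks in 228 (18.3%; 23.3% of all tested). Some of these differences follow from the fold filter, since 77 intervals passed it in WT alone (6.06%; 11.3% of all kept intervals) and 194 in CREBBP-KO alone (15.3%; 14.8%). Of those passing in CREBBP-KO alone, 175 were tested, with 91 higher and 0 lower. Of those passing in WT alone, 71 were tested, with 0 higher and 38 lower. In the 1000 that passed in both genotypes, 172 ranked higher (17.2%) and 141 lower (14.1%), with a median shift of 0.08. The shares of all tested intervals (18.6% and 18.7%) include those that passed in 1 genotype alone. They are therefore no matched background for these 1000, and a matched one was not computed.

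**Figure D2:**
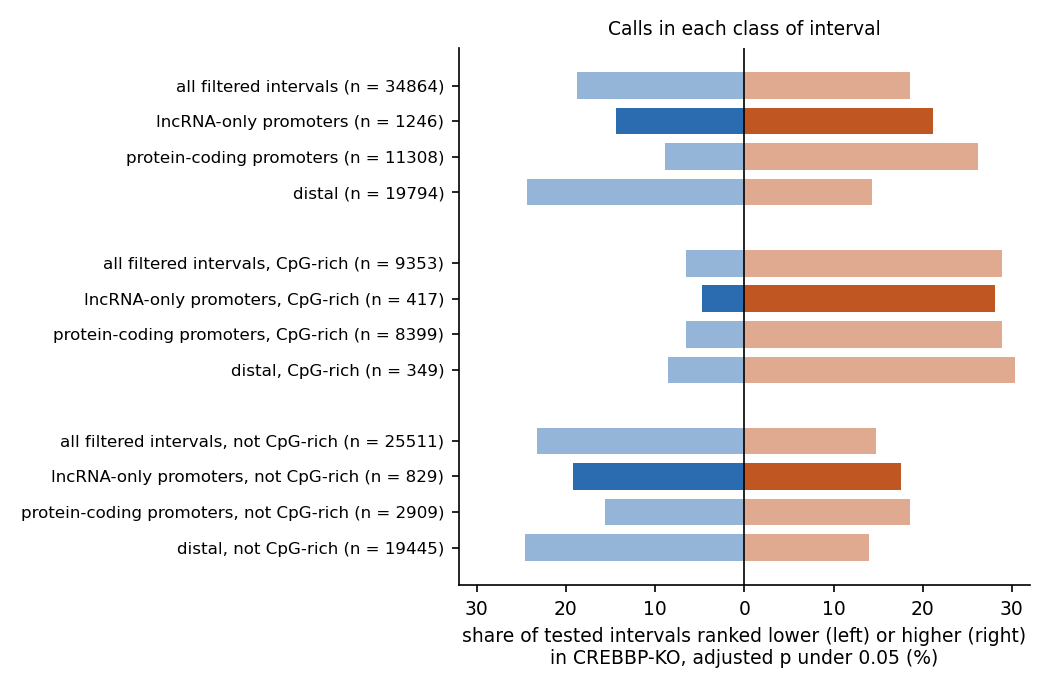
Share of tested intervals (%) ranked lower (blue, to the left) or higher (orange, to the right) in CREBBP-KO at an adjusted p under 0.05, for all kept intervals and each class, then split by CpG content. Noncoding-transcript-only promoters are in full colour: 28.1% higher and 4.80% lower when CpG-rich, 17.6% higher and 19.2% lower otherwise.

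The direction of the shift went with CpG content. An interval was called CpG-rich when the 500 bases on each side of its summit had a CpG observed-over-expected ratio of at least 0.6 and at least 50% G and C, and 422 noncoding promoters were (33.2%), against 26.5% of all kept intervals, 74.2% of coding promoters and 1.77% of distal intervals. Of the 417 CpG-rich noncoding promoters tested, 117 ranked higher in CREBBP-KO and 20 lower, with a median shift of 0.29. Of the 829 others, 146 ranked higher and 159 lower, with a median shift of 0.01. Part of this contrast comes through the fold filter, which favours a call towards the genotype in which an interval passed. Of the CpG-rich noncoding promoters, 56 passed in CREBBP-KO alone (13.3%) and 4 in WT alone (0.948%), and of the others 138 (16.3%) and 73 (8.60%). The split by CpG content among those passing in both genotypes was not computed. Over all CpG-rich intervals of the series 28.9% ranked higher and 6.52% lower, against 28.1% and 4.80% in the noncoding promoters. Among intervals that were not CpG-rich, 17.6% of noncoding promoters ranked higher and 19.2% lower, which lay between coding promoters (18.5% and 15.6%) and distal intervals (14.0% and 24.6%).

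When trends of the score with G and C content and interval length were removed within each library, the CpG-rich noncoding promoters split 62 to 46 and the others 144 to 139, and the median shifts fell to 0.06 and -0.02. The split by CpG content was thus largely lost under that correction, and the part of base composition in the shifts was not tested. In percentiles, the median CpG-rich noncoding promoter stood at 85.1, 85.2 and 85.3 in the WT libraries and at 90.2, 89.6 and 89.8 in the CREBBP-KO libraries. The others stood at 81.3, 80.6 and 78.7 in WT and at 83.3, 82.8 and 81.3 in CREBBP-KO, where the lowest KO library equalled the highest WT library to the first decimal.

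**Figure D3:**
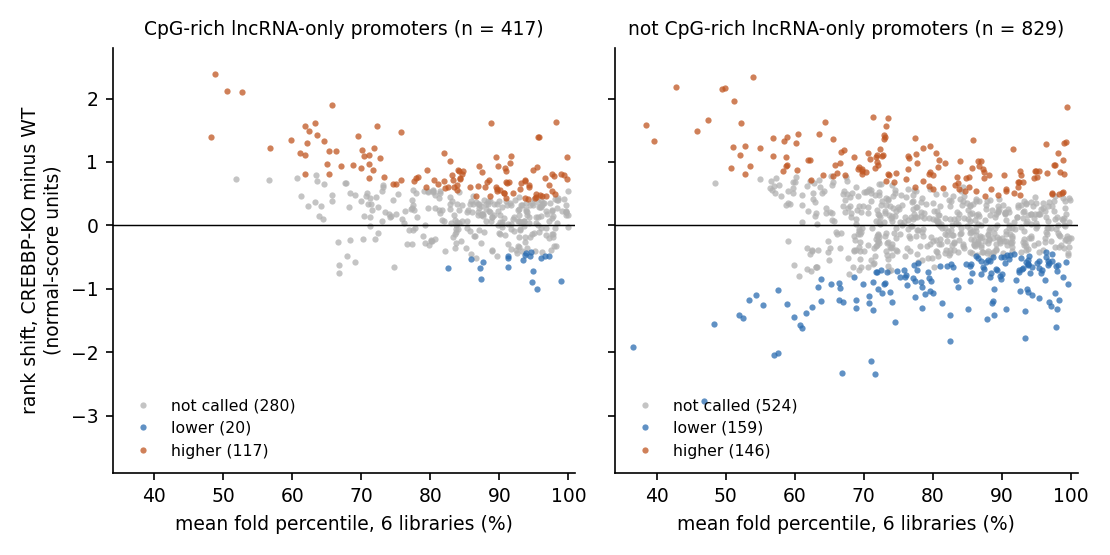
Rank shift (normal-score units, CREBBP-KO minus WT) of each tested noncoding-transcript-only promoter against its mean fold percentile over 6 libraries (%), in CpG-rich (left, n = 417) and other intervals (right, n = 829). Orange points ranked higher and blue points lower at an adjusted p under 0.05. The left panel holds 117 orange and 20 blue points, the right panel 146 and 159.

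Short sequence motifs in the promoter windows differed in frequency between promoters that rose and fell. The motifs were searched on both strands of the 300-base windows, and a match is a description of the letters. The GC box GGGCGG, bound by SP and KLF factors, was present in 34.9% of the noncoding promoters, in 41.8% of those ranked higher in CREBBP-KO and in 19.6% of those ranked lower, against 45.0% of RefSeq windows. The AP-1 site TGACTCA, bound by FOS and JUN dimers and common in enhancers, was present in 13.7% of the noncoding promoters, in 7.61% of those higher and 21.2% of those lower, against 4.95% of RefSeq windows. Within the intervals that were not CpG-rich, the AP-1 site was found in 15 of 146 higher windows (10.3%), 37 of 159 lower windows (23.3%) and 112 of 524 that were not called (21.4%). Within the CpG-rich intervals it was found in 4.27% of higher, 5.00% of lower and 1.07% of uncalled windows. The GC box was about as frequent in higher, lower and uncalled windows of CpG-rich intervals (67.5%, 70.0% and 71.8%), and was found in 21.2%, 13.2% and 17.4% of the others.

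The NFY box CCAAT was found in 33.5% of the noncoding promoters and 34.6% of RefSeq windows, with 31.2% of the higher and 38.0% of the lower promoters. Among CpG-rich intervals 26.5% of higher, 30.0% of lower and 24.6% of uncalled windows held it, and among the others 34.9%, 39.0% and 38.0%. The TATA box TATAAA was found in 10.8% and 11.5%, with 8.37% of the higher and 14.5% of the lower promoters. In CpG-rich intervals it was found in 3.42% of higher, 5.00% of lower and 4.64% of uncalled windows, and in the others in 12.3%, 15.7% and 14.5%. The cAMP response element TGACGTCA, the site of CREB, the factor after which CREBBP is named, was found in 26 windows (2.05%, against 1.85% in RefSeq). Of these, 0 were among the 263 higher, 5 among the 179 lower (2.79%) and 21 among the 804 uncalled promoters (2.61%). In CpG-rich intervals it was found in 0 of 117 higher, 2 of 20 lower and 13 of 280 uncalled windows. In the others it was found in 0 of 146, 3 of 159 and 8 of 524, so these numbers are small. The NRF1 core CGCATGCG was found in 18 windows (1.42%, against 2.02%). Among the windows printed above, that of NORAD held an AP-1 site and an NFY box, that of ENSG00000277159 a GC box, that of ENSG00000226643 an NFY box and that of LINC01931 a TATA box.

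The 10 largest falls in rank were at lncRNA starts 25060 bases or more from a coding start, and none of the 10 was CpG-rich. At ENSG00000250777 (chr4:137699564-137701984, summit in an intron, 168115 bases from the nearest coding start, that of the protocadherin gene PCDH18) the percentiles were 82.9, 72.2 and 77.4 in WT and 28.7, 6.09 and 14.0 in CREBBP-KO. The groups did not overlap, and the shift was -2.76 (SE 0.31, limma adjusted p = 2.64e-06). LINC01931 stood at 88.2, 83.4 and 93.4 in WT and at 49.8, 54.4 and 60.6 in CREBBP-KO (shift -2.34, SE 0.27, limma adjusted p = 4.52e-06). The summit of MEF2C-AS1, 38812 bases from the start of MEF2C, which encodes a transcription factor of muscle and neurons, lay 18 bases from the start of the lncRNA. Its percentiles were 91.8, 80.6 and 87.1 in WT and 70.2, 52.2 and 19.1 in CREBBP-KO, with the KO values widely spread but all below WT (shift -2.33, SE 0.35, limma adjusted p = 5.17e-05).

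LINC01701, ENSG00000203434 and NCKAP5-AS2 also passed the fold filter in WT alone and shifted by -2.14, -2.04 and -2.01. At ENSG00000203434 the KO percentiles were 0.592, 62.5 and 55.8 and the WT percentiles 76.9, 79.0 and 67.7, and without the first KO library the shift was -1.34. LINC02336 and ENSG00000244676 differed in that they stayed over the fold filter in both genotypes. LINC02336 (chr13:89399030-89402714) was among the highest peaks of WT, at 99.6, 99.2 and 99.2, and stood at 90.4, 86.6 and 85.2 in CREBBP-KO (shift -1.77, SE 0.16, limma adjusted p = 4.93e-07). ENSG00000244676, inside C21orf91 on the opposite strand, stood at 93.3, 97.1 and 90.1 in WT and at 73.3, 71.4 and 69.8 in CREBBP-KO (shift -1.83, SE 0.21). ENSG00000261227, inside the gene of the transcription factor ZFHX3 on the opposite strand, and ENSG00000289996 completed the 10, with shifts of -1.92 and -1.61.

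The 10 largest rises in rank started from WT percentiles under 57, apart from ENSG00000285646 beside RNU5E-1. At ENSG00000277159 (chr13:112605883-112606895, summit in an exon, 18070 bases from the start of the tubulin-complex gene TUBGCP3) the percentiles were 7.03, 27.9 and 19.6 in WT and 80.9, 83.7 and 73.4 in CREBBP-KO. The groups were far apart, with a shift of 2.39 (SE 0.30, limma adjusted p = 8.79e-06). ENSG00000226643 stood at 39.7, 15.4 and 22.6 in WT and at 86.5, 80.5 and 79.0 in CREBBP-KO (shift 2.33, SE 0.30). LUNAR1, a lncRNA described as a NOTCH target that enhances IGF1R expression in T-cell leukaemia, stood at 15.0, 26.6 and 27.9 in WT and at 78.0, 76.5 and 78.8 in CREBBP-KO (shift 2.11, SE 0.29, limma adjusted p = 1.90e-05). Its KO values were within 3 percentiles of each other and all above WT.

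LINC00964, ENSG00000255476 and ENSG00000286826 shifted by 2.18, 2.16 and 2.15, and the last stood at 42.7, 19.1 and 3.18 in WT and at 78.6, 79.7 and 73.2 in CREBBP-KO. An interval at LINC01138 shifted by 2.11, from 18.9, 43.5 and 16.0 to 82.2, 71.6 and 83.6, and ENSG00000272473 and ENSG00000273348 shifted by 1.95 and 1.90. All but 1 of the 10 largest rises passed the fold filter in CREBBP-KO alone and 4 of the 10 (ENSG00000277159, LUNAR1, LINC01138 and ENSG00000273348) were CpG-rich. All 20 shifts kept their direction and stayed under an adjusted p of 0.05 in every alternative fit that was run for them, including those without 1 library and with trends of base composition removed. They were chosen for groups that do not overlap, and most entered through the genotype in which they are high, so this describes the fits and is no independent support.

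**Figure D4:**
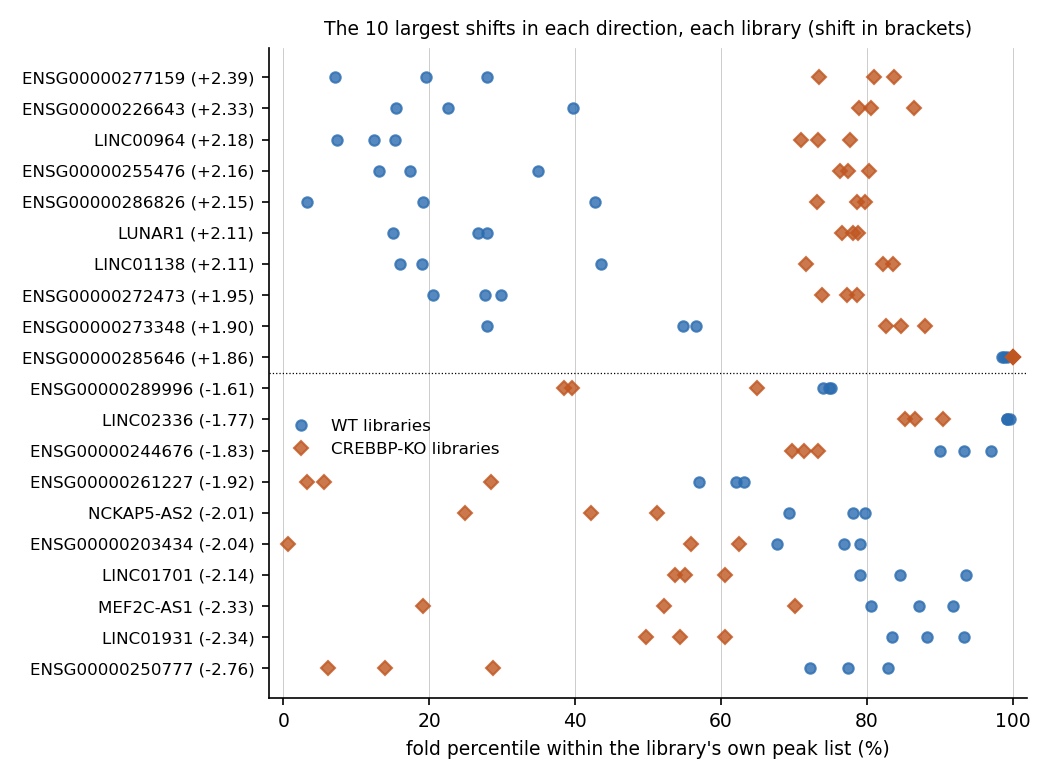
Fold percentile (%) in each library of the 10 noncoding-transcript-only promoters with the largest rise and the 10 with the largest fall, with the shift in brackets. Blue circles are the 3 WT and orange diamonds the 3 CREBBP-KO libraries, which do not overlap in any of the 20 by the rule that chose them. ENSG00000250777 has the largest fall (-2.76) and ENSG00000277159 the largest rise (2.39).

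Peaks present in only 1 genotype were rare. Fold was at least 5 in all 3 CREBBP-KO libraries with no peak in any WT library at 7 noncoding promoters (0.551%; 0.293% of all kept intervals), and the reverse held at 1 (0.0787%; 0.163%). The 7 were nearest to ENSG00000284699, ENSG00000237590, ENSG00000258168, ENSG00000267412, ENSG00000289985, ENSG00000251144 and ENSG00000226965. They were of moderate height: ENSG00000237590, 122941 bases from the start of the chemokine gene CXCL12, stood at 78.6, 76.9 and 72.4, and ENSG00000226965 at 78.9, 80.0 and 73.8. The lowest, ENSG00000251144, 95162 bases from the start of the homeobox gene MSX2, stood at 66.8, 63.3 and 62.8. Only ENSG00000289985 was CpG-rich. The interval found in WT alone was a second start of LINC02336 (chr13:89403202-89404996), at 70.2, 68.7 and 72.3.

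LINC02336 was 1 of 8 genes with 3 or more intervals. Another of its intervals stood at 71.6, 70.4 and 72.4 in WT and at 58.8, 45.5 and 51.0 in CREBBP-KO (shift -1.39, SE 0.29, limma adjusted p = 0.000842), so that all 3 starts were lower in CREBBP-KO or had no peak there. In all, 50 genes had 2 or more intervals, 110 intervals together, and 24 of these genes had no interval that changed. Another gene with 2 falling intervals was LINC01588, and LINC00511, USP2-AS1 and LINC01605 had 2 or more rising ones. Starts of the same gene moved apart at ZNF496-DT, LINC00472 and LINC01572. At LINC00472 the interval chr6:71399408-71415798 fell (shift -0.50, limma adjusted p = 0.0210) and the interval chr6:71418561-71421452 rose (shift 0.74, limma adjusted p = 0.00389). At LINC01572 the shifts were 0.81 and -0.84 (limma adjusted p = 0.00154 and 0.00104).

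Host genes of miRNAs had high peaks, and few of them were called. Of 32 listed host genes, 15 had 19 intervals, of which 3 ranked higher (15.8%; 18.6% of all tested intervals) and 1 lower (5.26%; 18.7%), with a median shift of 0.28 against 0.02 over all tested intervals and 11 of 19 CpG-rich. The higher 3 were a start of MIR29B2CHG, which carries miR-29b and miR-29c (91.7, 87.4 and 89.6 in WT, 96.5, 96.9 and 96.7 in CREBBP-KO, shift 0.66), MIR23AHG (95.1, 95.7 and 95.1, against 98.3, 98.2 and 98.5, shift 0.47) and MIR1915HG (48.4, 61.3 and 61.4, against 73.7, 76.2 and 81.6, shift 0.93). All 3 had KO values above every WT value. A start of MIR4435-2HG fell, from 95.0, 98.7 and 92.6 to 92.8, 93.7 and 89.7 (shift -0.55), with 2 KO percentiles above the lowest WT percentile although the ranks did not overlap, and its other 2 starts had shifts of 0.28 and 0.33 with no call. With trends of base composition and length removed, 0 of the 19 were called, and without 1 library 1 to 4 ranked higher and 0 or 1 lower, fewest (1 and 0) without CREBBP-KO replicate 3. MIR29B2CHG alone kept its call without each library. MIR17HG, host of the miR-17/92 cluster that MYC induces, had percentiles between 91.6 and 96.8 in all libraries and a shift of 0.13 (SE 0.17). MIR31HG stood at 99.1, 98.3 and 97.9 in WT and at 97.9, 97.8 and 96.5 in CREBBP-KO (shift -0.33, SE 0.16, limma adjusted p = 0.118).

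Counted by position instead, 60 intervals (59 tested) had as nearest lncRNA 1 of 50 genes that hold a miRNA gene on their own strand. Of these 12 ranked higher and 7 lower, against 18.6% and 18.7% of all tested intervals, and the median shift was 0.28. Hosts of the let-7 family, miRNAs that repress HMGA2 and RAS messages and accumulate as cells differentiate, were among the highest peaks of the class. The members of the family hosted here share the seed, bases 2 to 8, in capitals in the mature sequences from RefSeq (GRCh38.p14), and are shown because 5 separate host promoters serve this seed.
hsa-let-7a-5p: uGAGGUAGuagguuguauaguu
hsa-let-7b-5p: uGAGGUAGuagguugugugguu
hsa-let-7c-5p: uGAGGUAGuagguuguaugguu
hsa-let-7d-5p: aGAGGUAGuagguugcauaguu
hsa-let-7f-5p: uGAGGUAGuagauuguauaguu
hsa-let-7i-5p: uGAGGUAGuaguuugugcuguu

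MIRLET7A1HG, host of let-7a-1, let-7f-1 and let-7d, stood at 99.9 in each WT library and between 99.98 and 99.99 in the CREBBP-KO libraries. Its fold was 33.6, 30.8 and 31.6 in WT and 44.5, 45.1 and 47.3 in CREBBP-KO, and its shift of 0.54 (SE 0.23, limma adjusted p = 0.0645) missed the threshold. MIRLET7BHG, host of let-7a-3 and let-7b, stood at 99.2, 99.8 and 99.7 in WT and at 99.9, 99.8 and 99.9 in CREBBP-KO (shift 0.33, SE 0.20). MIRLET7IHG, host of let-7i, stood between 98.9 and 99.8 in all libraries (shift 0.17, SE 0.21). The long interval of MIR100HG, host of let-7a-2, miR-100 and miR-125b-1, stood at 99.4, 99.3 and 97.9 in WT and at 99.7, 99.5 and 99.6 in CREBBP-KO (shift 0.28, SE 0.19), and a shorter interval of the same gene had a shift of -0.40 (SE 0.22) with no call. MIR99AHG, host of let-7c, was lower in all libraries, at 87.3, 89.9 and 84.6 in WT and 88.5, 91.4 and 92.0 in CREBBP-KO (shift 0.13, SE 0.18). None of the 5 hosts was called changed in this fit. MIRLET7A1HG was called with trends of base composition removed (shift 0.62, limma adjusted p = 0.00613), without the variance trend (limma adjusted p = 0.0366) and on median-centred log2 folds (limma adjusted p = 0.00157). On log2 folds MIRLET7BHG (limma adjusted p = 0.0155) and the long interval of MIR100HG (limma adjusted p = 0.0365) were called higher too. With −log10 p as the ranking measure the long interval of MIR100HG was called higher (shift 0.70, limma adjusted p = 0.000855) and its shorter interval lower (shift -0.51, limma adjusted p = 0.0358).

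Among host genes of snoRNAs all calls were rises, and none of these calls was stable. Of 33 listed genes, 20 had 21 intervals, 16 of them CpG-rich, of which 7 ranked higher (33.3%) and 0 lower, against 18.6% and 18.7% of all tested intervals and 28.9% and 6.52% of all CpG-rich ones, with a median shift of 0.28 against 0.02 over all tested intervals. SNHG30 had the largest shift of the list, from 77.4, 85.7 and 71.0 in WT to 90.0, 90.8 and 88.2 in CREBBP-KO (0.63, SE 0.21, limma adjusted p = 0.0222). DANCR, a lncRNA named for holding back differentiation, went from 77.7, 76.5 and 87.2 to 91.9, 90.5 and 90.8 (shift 0.61, SE 0.20). The groups were separate at both. SNHG16, SNHG25, SNHG7, SNHG32 and a start of CYTOR were the other 5, with shifts of 0.61, 0.57, 0.55, 0.50 and 0.49, and the ranks of the genotypes overlapped at SNHG25 and CYTOR. SNHG8 had the lowest shift of the list, -0.39 (SE 0.17, limma adjusted p = 0.0736). SNHG15, SNHG28, SNHG29, SNHG26 and SNHG11 had shifts between -0.18 and -0.03 with no call. Without 1 library 1 to 5 of the 21 ranked higher and 0 lower: 1 without CREBBP-KO replicate 1, 3 without replicate 2 and 4 without replicate 3, then 4, 3 and 5 without WT replicates 1, 2 and 3. None of the 7 kept its call in all 6 of these fits. With trends of base composition and length removed, SNHG14 alone ranked higher (shift 0.71, limma adjusted p = 0.0278). With −log10 p as the ranking measure 1 of the 21 ranked higher and 0 lower.

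Among lncRNAs of nuclear bodies and chromatin 4 rises and 0 falls were called. Of 21 listed genes, 12 had 14 intervals, 4 of which ranked higher (28.6%; 18.6% of all tested intervals) and 0 lower (18.7% of all tested), with a median shift of 0.30. Of the 14, 6 were CpG-rich (42.9%; 26.5% of all kept intervals), and over all CpG-rich intervals 28.9% ranked higher and 6.52% lower. NORAD, which binds PUMILIO proteins and guards chromosome number, was among the 10 highest noncoding promoters: 99.7, 99.1 and 99.9 in WT and 99.96, 99.98 and 99.96 in CREBBP-KO (shift 0.73, SE 0.22, limma adjusted p = 0.0139). HOTAIR, transcribed within the HOXC cluster 7215 bases from the start of HOXC11, went from 77.6, 69.2 and 71.0 to 87.6, 89.9 and 89.6 (shift 0.92, SE 0.21, limma adjusted p = 0.00205). The KO values were separate from WT in both. KCNQ1OT1, the imprinted antisense transcript of KCNQ1, went from 80.5, 74.9 and 77.8 to 88.6, 86.6 and 91.8 (shift 0.61, SE 0.20, limma adjusted p = 0.0217). PVT1 had 3 intervals, of which the one nearest to MYC went from 71.7, 64.1 and 71.3 to 89.8, 92.1 and 88.9 (shift 1.25, SE 0.22, limma adjusted p = 0.000218), while the other 2 had shifts of -0.04 and 0.56 with no call. NEAT1 and MALAT1, adjacent on chromosome 11, stood between 96.7 and 99.9 in all libraries with shifts of 0.21 (SE 0.21) and 0.38 (SE 0.23). MEG3, DLEU2 and both FIRRE intervals had shifts of -0.11, -0.20, -0.49 and -0.30 with no call, and TERC, the RNA template of telomerase, one of 0.39 (SE 0.16, limma adjusted p = 0.0637). HOTAIR and the called PVT1 interval kept their call without each library. NORAD and KCNQ1OT1 lost theirs without the second WT library, NORAD also without CREBBP-KO replicate 2 and KCNQ1OT1 without CREBBP-KO replicate 3. With −log10 p as the ranking measure 2 of the 14 ranked higher and 0 lower, and NORAD (shift 0.45) and KCNQ1OT1 (shift 0.39) were not called. With trends of base composition and length removed 3 ranked higher and 2 lower, where KCNQ1OT1 was not called and MEG3 (shift -0.51) and a FIRRE interval (shift -0.49) were.

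LncRNAs of stress and p53 responses were high peaks, and 3 of their 7 intervals fell (42.9%; 18.7% of all tested intervals), of which 1 kept its call without each library. The 7 intervals belonged to 6 of 17 listed genes, 0 ranked higher (18.6% of all tested), and the median shift was 0.20, opposite in sign to the calls. On median-centred log2 folds 2 ranked higher and 2 lower, and 1 ranked higher with −log10 p as the ranking measure and without WT replicate 1. PURPL, a p53-induced lncRNA, went from 91.4, 91.4 and 83.4 in WT to 86.4, 83.7 and 76.3 in CREBBP-KO (shift -0.63, SE 0.21, limma adjusted p = 0.0201). LUCAT1, induced by NRF2 and interferon, went from 98.0, 98.7 and 93.5 to 93.5, 95.1 and 92.0 (shift -0.59, SE 0.19, limma adjusted p = 0.0169), with 1 KO percentile above the lowest WT percentile. CDKN2B-AS1, antisense to the gene of the cell-cycle inhibitor CDKN2B, had 2 intervals. The interval chr9:22114033-22120721 went from 98.3, 98.5 and 97.9 to 95.7, 95.0 and 95.0 (shift -0.62, SE 0.15, limma adjusted p = 0.00363) and chr9:22049041-22057446 had a shift of 0.20 with no call. LINC-PINT and LNCTAM34A, whose start neighbours that of the miR-34a host MIR34AHG, both p53 targets, had shifts of 0.43 (SE 0.24) and 0.41 (SE 0.17, limma adjusted p = 0.0560). CDKN2B-AS1 kept its call without each library but not with −log10 p as the ranking measure (shift -0.22, limma adjusted p = 0.227). Without CREBBP-KO replicate 3, or without the first or second WT library, 1 interval of the list ranked lower, and 2 did without the first CREBBP-KO library. PURPL was called in 3 and LUCAT1 in 2 of the 6 fits without 1 library. PURPL also lost its call with trends of base composition removed, and LUCAT1 lost its own without the variance trend and on log2 folds.

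Of 54 listed lncRNAs of epithelium, gut and cancer, 9 had 15 intervals, 14 of them tested, and only 2 of the 15 were CpG-rich. Of the 14, 5 ranked higher (35.7%; 18.6% of all tested intervals) and 1 lower (7.14%; 18.7%), and the median shift was 0.35. LINC00511, between SOX9 and SLC39A11 on chromosome 17, had 5 intervals, the most of any gene. Its start chr17:72337563-72340915 went from 90.9, 89.1 and 86.4 to 97.9, 96.8 and 94.1 (shift 0.68, SE 0.17, limma adjusted p = 0.00388). The intervals chr17:72590474-72592836 and chr17:72600627-72604436 went from 46.0, 61.5 and 59.9 to 83.3, 82.2 and 84.2 (shift 1.41, SE 0.27) and from 68.3, 65.7 and 45.8 to 88.3, 88.2 and 81.9 (shift 1.39, SE 0.27). All 3 had KO values above every WT value, and the other 2 intervals had shifts of 0.31 and 0.46 with no call.

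The single fall in this list was at GHET1, named for its high expression in gastric carcinoma, from 92.4, 95.2 and 91.3 in WT to 74.1, 79.3 and 78.5 in CREBBP-KO (shift -1.32, SE 0.20, limma adjusted p = 4.49e-05). Its summit lay 115 bases upstream of the GHET1 start, and the small RNA gene RNY1 is within 1 kb of it, so the peak may not be that of GHET1 alone. Of 3 LINC01605 intervals, 2 rose, with shifts of 0.79 and 0.69. These calls were lost with trends of base composition removed, with −log10 p as the ranking measure, and in 3 and 4 of the 6 fits without 1 library. The 3 calls of LINC00511 and that of GHET1 held without each library, and the start of LINC00511 with the shift of 0.68 was not called with −log10 p as the ranking measure (0.21). LINC00598, in the neighbourhood of FOXO1, was not tested because 1 WT library had no peak: the other WT values were 10.6 and 47.1, and the KO values were 68.6, 78.2 and 74.3. LINC01133, DRAIC, CASC15 and PCAT1 had shifts of 0.15, 0.17, 0.08 and -0.41 with no call.

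**Figure D5:**
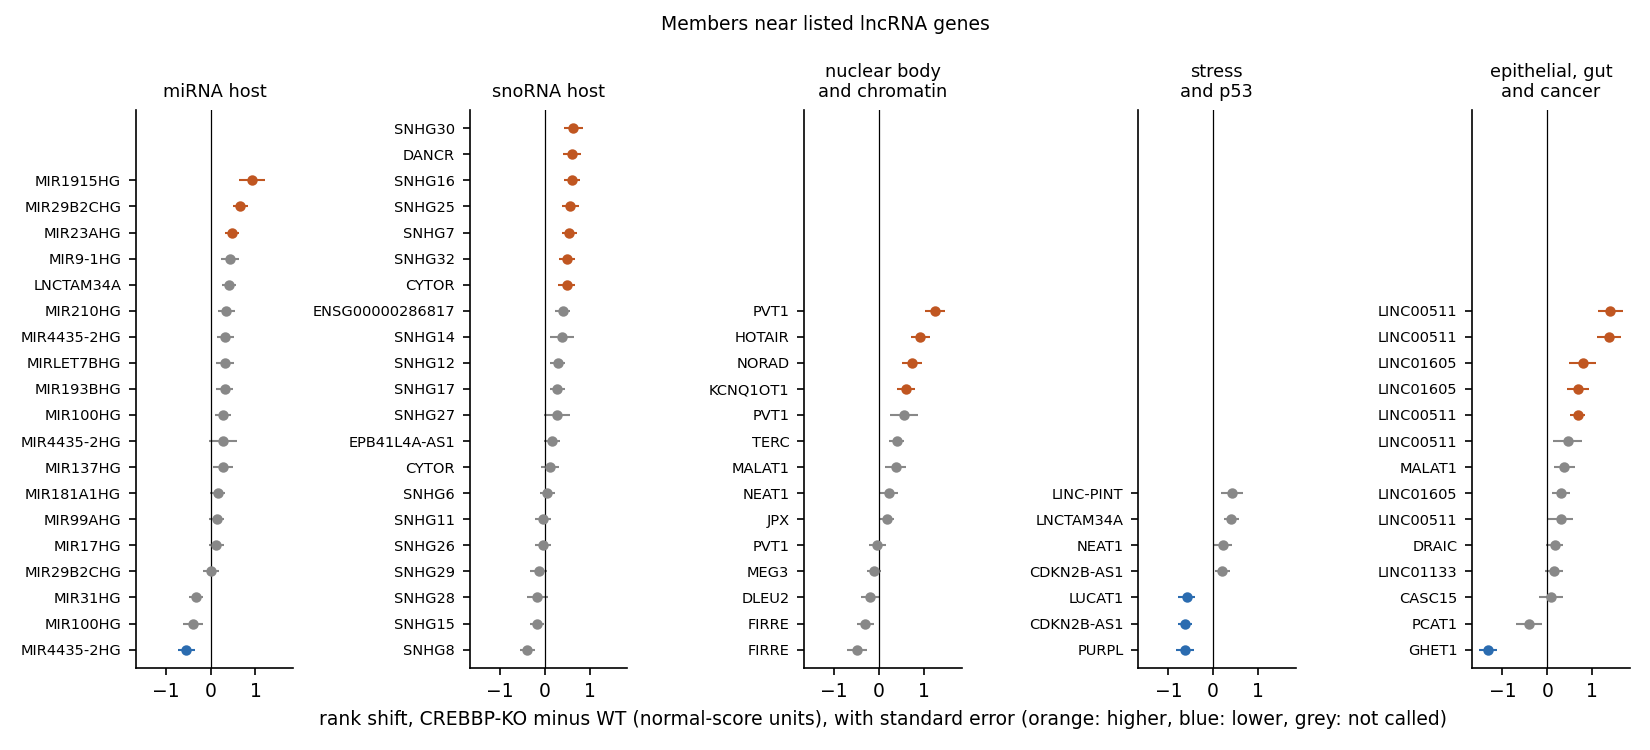
Rank shift (normal-score units, CREBBP-KO minus WT) with its standard error for each tested interval near a listed lncRNA gene, 1 panel per list, a gene name repeated where it has several intervals. Orange points ranked higher and blue points lower at an adjusted p under 0.05. The snoRNA hosts hold 7 orange and 0 blue points, none of them called in every fit without 1 library, and the stress and p53 list 0 and 3.

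Starts beside genes of spliceosomal small nuclear RNAs (snRNAs) stood out for height and were singled out after their values were seen. Of the 1271 intervals, 10 had an snRNA gene within 1 kb of the summit, and 3 of the 10 highest noncoding promoters were among them. The highest of all, ENSG00000261135 beside RNU1-1, which encodes U1, had a fold of 36.7, 39.7 and 39.5 in WT and 43.5, 45.9 and 47.7 in CREBBP-KO, with a shift of -0.02 (SE 0.26). Of the 9 tested, 4 ranked higher (44.4%; 18.6% of all tested intervals) and 0 lower (18.7% of all tested). Of the 10 intervals, 9 were CpG-rich, and over all CpG-rich intervals 28.9% ranked higher and 6.52% lower. ENSG00000285646, beside RNU5E-1, which encodes U5, had a fold of 21.8, 23.1 and 22.5 in WT and 47.1, 60.2 and 49.8 in CREBBP-KO (shift 1.86, SE 0.23, limma adjusted p = 7.47e-06). LINC00869, beside RNVU1-30, stood at 97.6, 96.1 and 95.9 in WT and at 99.97, 99.93 and 99.96 in CREBBP-KO (shift 1.63, SE 0.18, limma adjusted p = 2.33e-06). ENSG00000287190, beside RNVU1-6, and ENSG00000291232, beside RNVU1-3, shifted by 1.07 and 0.86. With −log10 p as the ranking measure ENSG00000287190 had a shift of 0.28 and no call. The U1 genes and their variants are near-identical copies on chromosome 1, so the assignment of reads among them is uncertain, and the interval of LINC01138 named above lies in the same region.

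Position relative to coding genes went with the shift to a lesser degree. Of the 1010 tested intervals outside coding genes, 222 ranked higher (22.0%; 18.6% of all tested) and 134 lower (13.3%; 18.7%), with a median shift of 0.17. Of the 171 on the opposite strand of a coding gene 34 ranked higher and 34 lower (19.9% each), with a median shift of -0.02. Intervals over 200 kb from a coding start were the exception among distances, with 24 of 145 higher (16.6%) and 38 lower (26.2%). At 10 to 50 kb 114 of 513 were higher (22.2%) and 62 lower (12.1%). The share of CpG-rich intervals moved with both divisions: 37.6% outside coding genes and 13.2% on the opposite strand, 15.4% over 200 kb and 40.7% at 10 to 50 kb, and its part in these splits was not tested. The promoter peak of the nearest coding gene could be tested for 167 of the 263 higher, 115 of the 179 lower and 481 of the unchanged noncoding promoters. That coding promoter ranked higher in 29.3%, 25.2% and 28.5% of these and lower in 9.58%, 13.0% and 9.77%, against 26.2% and 8.84% of all coding promoters, so these shares were similar whichever way the noncoding promoter moved.

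Intervals made of a single peak in every library with a peak there numbered 852, of which 830 were tested, with 182 higher and 116 lower. The 123 with 3 or more peaks in some library, 122 of them tested, had 19 higher and 17 lower. Over the whole class 21.1% ranked higher and 14.4% lower, and over all tested intervals 18.6% and 18.7%. Starts with lncRNA transcripts in both directions within 1 kb, 137 intervals of which 69.3% were CpG-rich, had 30 higher (21.9%) and 10 lower (7.30%). Over all CpG-rich intervals these shares were 28.9% and 6.52%.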

How the data were processed

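The submitters' notes name BWA and hg38, and the study's methods describe the nf-core ChIP-seq pipeline with narrow peaks called by MACS2 per library, with and without reads downsampled to a common depth. Which of these the lists come from is not given in the sources used here. The deposited lists give, for each peak, the fold of its summit over local background (a ratio), −log10 p and −log10 q values, a display score and the summit offset, as the authors' caller wrote them. They hold no read counts, so the depth of each library is unknown and no interval or detection limit is given. Fold was used, with −log10 p and −log10 q for alternatives. Input libraries were not analysed here, and the study's test on reads (DiffBind) needs alignments.

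The members and gene lists were chosen with earlier results of these data known. Peaks were merged in Python 3.11.15, and the number of merged intervals was checked with bedtools 2.31.1. Transcript starts were taken from GENCODE 44 on hg38, and sequence was read from hg38 with pysam 0.24.0. Rank scores were fitted with limma 3.58.1 (R 4.3.3; eBayes with a trend) without a replicate block, and p-values were adjusted by Benjamini-Hochberg over 34864 intervals. The script was tested on simulated data. Named genes were the 10 largest rises and 10 largest falls at an adjusted p under 0.05 with groups that do not overlap, the 10 highest percentiles, intervals with peaks in 1 genotype alone, and every interval of 5 gene lists (hosts of miRNAs, hosts of snoRNAs, nuclear bodies and chromatin, stress and p53, epithelium, gut and cancer). Other members named were chosen after their values were seen: those beside snRNA genes, genes with several intervals and hosts of let-7. Alternatives changed the fold filter, the merging, the distances, the transcripts used, the list length, the ranking measure, the scale, base composition, the variance model, the threshold and the libraries, 1 at a time.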

Additional observations from a re-analysis of the deposited data

How the results depend on the processing

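Read depth, clone and base composition limit these results, and the cause of the changes below was not tested. Requiring a fold of at least 10 left 637 intervals, 148 higher in CREBBP-KO, a percentile difference of 1.14, a median shift of 0.18 and 0 found in 1 genotype alone (8 in the main definition). A fold of at least 3 gave 4.58, 0.090 and 64, and a fold reached in at least 1 library gave 4.16, 0.11 and 25. With lists of the same length the percentile difference was 1.02. A −log10 q of at least 5 gave 21 in 1 genotype alone. Ranking by −log10 p gave 173 higher and a median shift of 0.053. The median shift was 0.17 with lncRNA starts within 500 bases, 0.13 on median-centred log2 folds and 0.019 with trends of base composition and length removed. An adjusted p under 0.0001 left 24 higher and 24 lower. Without 1 library, 197 to 276 ranked higher, 141 to 167 ranked lower, the median shift was 0.12 to 0.14 and 9 to 13 were found in 1 genotype alone, 13 without the first CREBBP-KO library. None of the 45 named calls and none of the median shifts over the whole class changed sign, while some named shifts that were not called did, and the median shift of the intervals that were not CpG-rich went from 0.01 to -0.02 with those trends removed. Of the named calls, 29 held in every fit without 1 library.

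With the replicate number as a block, 272 ranked higher and 184 lower, with a median shift of 0.14, and 1 named call, at LINC01605, was lost. The deviations of same-numbered libraries correlated at 0.0108, 0.0144 and 0.0284, and the first WT library correlated best with another number (0.0118), so the samples share only a number. Without the intervals beside snRNA genes, or without those that hold a coding start, both chosen after seeing the data, 259 and 261 ranked higher and 179 and 177 lower.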

Other observations

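Of the listed lncRNA genes annotated in GENCODE, 77 had no interval in the class. For 23 of these the summit lay within 3 kb of a coding start, among them the snoRNA hosts GAS5 and SNHG1, 18 had a peak below the filter, as the miRNA host MIR155HG and LINC00460 did, and 36 had no summit within 1 kb in any library. This last group held the imprinted H19, HOTTIP of the HOXA cluster, MIR200CHG, host of miR-200c, which represses the mesenchymal factors ZEB1 and ZEB2, MIR194-2HG, host of the gut miRNA miR-194, and the cancer-associated CRNDE and UCA1. These are counts over peak lists, in which a gene without a peak is one that the caller did not report.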
